A study of Mus musculus with 9 samples.

Results

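The enzymes that take acetyl and methyl groups off chromatin, and those that put methyl groups on it, were followed as 1 module of genes in mouse beige adipocytes made in culture. The module held 52 of the 24013 gene symbols measured. They were all symbols of the histone deacetylases (Hdac), sirtuins (Sirt), lettered lysine demethylases (Kdm), DNA methyltransferases (Dnmt), TET dioxygenases (Tet) and the SET domain proteins named Setd, Suv39h and Ezh. Of the 55 symbols with such names, 3 were left out beforehand: Kdm5c, Kdm5d and Kdm6a. The members were chosen by name and not by their values.

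Poly(A) RNA had been sequenced from adipocytes derived from stromal vascular cells of inguinal fat, in 3 groups of 3 libraries. The B6 group was of the strain C57BL/6J, called obesity-prone in the series, the 129 group of 129X1/SvJ, called obesity-resistant, and the F1 group of offspring from both. In every group the cells had insulin at 850 nM, T3 at 1 nM, rosiglitazone at 1 µM and 10% fetal bovine serum from confluence on. For the first 48 hours these were joined by dexamethasone at 1 µM, isobutylmethylxanthine at 0.5 mM and indomethacin at 125 nM, and RNA was taken at day 7. Rosiglitazone, an agonist of the fat cell regulator PPARγ, was thus part of the medium of all libraries of the 3 groups. The labels give neither the age of the mice nor the maternal strain of the F1. They also leave unsaid if replicates were separate mice or dishes, so each p-value reflects the spread among the sequenced libraries alone.

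Values were RPKM, reads per length of exon scaled to the reads assigned to genes, so levels of different genes can be compared per length. Depth was 19130022 to 28473083 assigned reads in the 6 parental libraries and 39686986 to 53410947 in the 3 F1 libraries, so every F1 library was deeper than every parental one. Replicate libraries differed by 3.92 to 15.6 times the variance of read counting, and no file was a copy of another. The adipocyte markers summed to 28140 to 32170 RPKM in the B6 libraries, 32090 to 34580 in those of 129 and 35980 to 38420 in those of F1, so every F1 library lay above every parental one. The lymphocyte markers reached 0.358 RPKM in sum, and Ckm, Myh4 and Myod1 of skeletal muscle were at 0. Xist was at or near 0 and the Y-linked Ddx3y and Eif2s3y were expressed in all 9 libraries, so the groups did not differ in sex where the X-linked members Hdac6, Hdac8 and Suv39h1 are compared.

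Deacetylases of classes I, II and IV use zinc to remove acetyl groups from lysines, and class I enzymes do so in the nucleus within corepressor complexes, whereas sirtuins consume NAD and work in the nucleus, cytosol or mitochondria. Demethylases of the KDM1 type use flavin, and the other KDM enzymes and the TET enzymes use iron and 2-oxoglutarate, so both groups are tied to the metabolism of the cell. SET domain enzymes and DNA methyltransferases take their methyl group from S-adenosylmethionine. In fat cells, several of these enzymes, among them Hdac1, Hdac3, Kdm1a, Kdm3a, Kdm6b and Ezh2, are known to act on the genes of adipogenesis or thermogenesis.

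The module was expressed broadly, and its most abundant members were nuclear deacetylases and 2 SET domain enzymes. Of the 52 members, 47 reached an RPKM of 1 in at least 3 libraries and were tested. Averaged over all libraries, the 5 highest were Hdac1 (42.3 RPKM), the H4K20 methyltransferase Setd8 (41.9), Hdac2 (39.9), the actin histidine methyltransferase Setd3 (39.2) and Hdac3 (35.1). Hdac1 held place 1 of the 52 in all 3 B6 libraries, place 5 in all 3 129 libraries and place 2 or 3 in F1. Hdac2 and Setd8 overlapped within each group. Setd3 lay below both of them in every B6 library and above Hdac2 in every F1 library. The 5 members below the test limit were Tet1, Hdac9, Suv39h2, Dnmt3b and Kdm4d. Sums over the members were 609 ± 11.8 RPKM in B6, 569 ± 5.05 in 129 and 599 ± 6.76 in F1 (SD, n = 3).

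**Figure D1:**
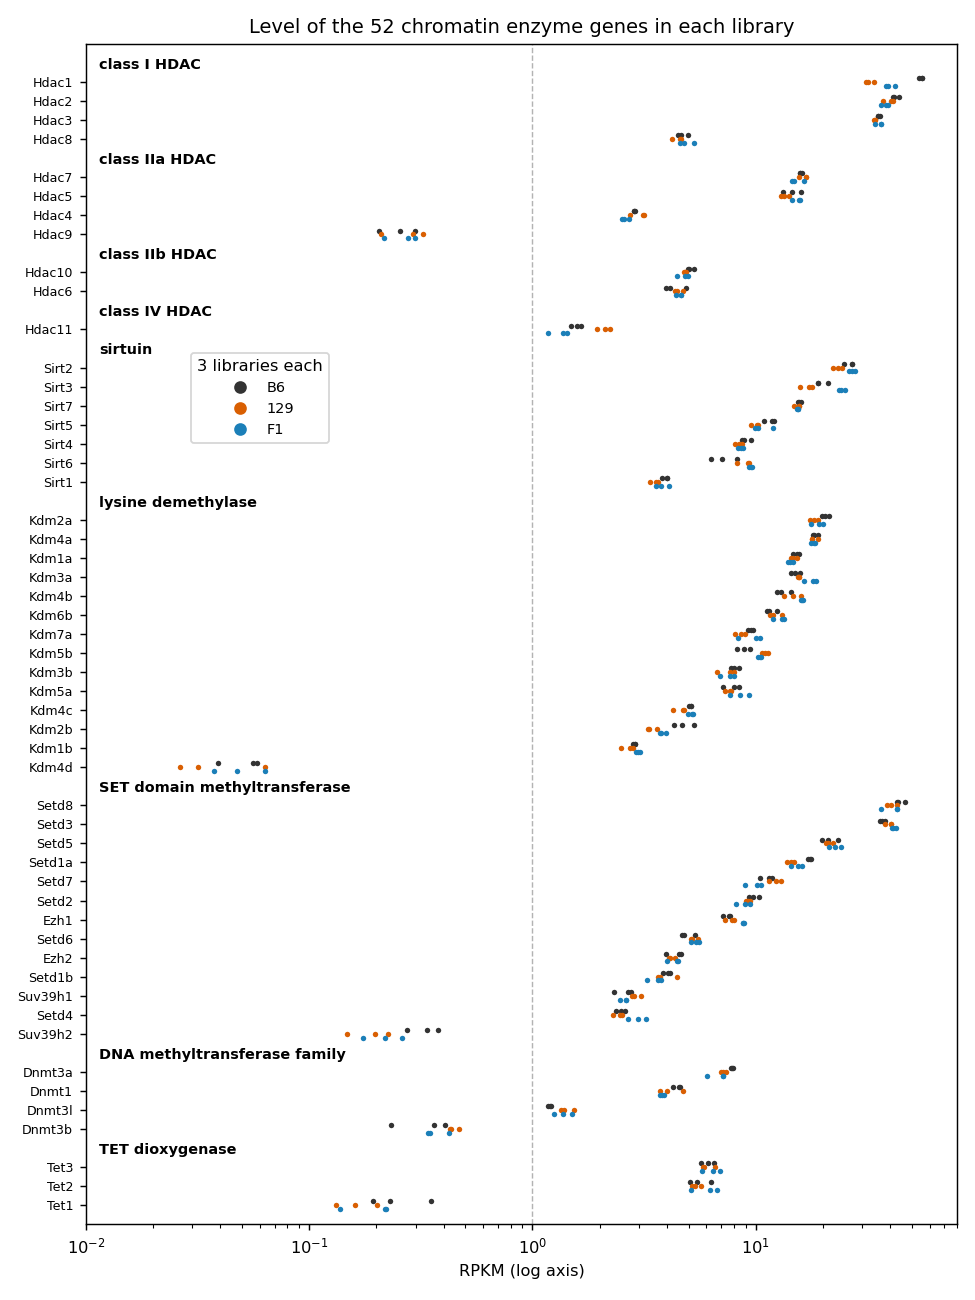
RPKM of the 52 members in each of the 9 libraries, on a log axis, grouped by enzyme class and coloured by strain. The dashed line is the test limit of 1 RPKM, the 5 untested members lie left of it, and the B6 points of Hdac1 lie apart from the other libraries.

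Between the parental strains, Hdac1 had the largest difference of the module, and it was lower in 129. Also lower in 129 were Kdm2b and Kdm2a, paralogous H3K36 demethylases, the H3K4 methyltransferase Setd1a and the sirtuins Sirt2, Sirt3 and Sirt5. Higher in 129 were the H3K4 demethylase Kdm5b, the nuclear sirtuin Sirt6 and Hdac11, the only class IV deacetylase. In all, 3 of 47 members rose and 7 fell in 129 minus B6 (limma on log2(RPKM + 1), Benjamini-Hochberg adjustment over 11542 genes, threshold 0.05), which is 21.3%. The background was 37.5% of all genes tested, with 15.9% higher and 21.7% lower, so the module's share lay below that of all genes. With median-of-ratios rescaling 4 members rose and 4 fell, and of all genes 2184 rose and 2075 fell, against 1834 and 2499 without it. Without 129 replicate 1, 6 members passed in all. Leaving out any 1 library gave 3532 to 4487 of all genes, against 4333 with all libraries. Groups did not overlap for 20 of the 47 members, against 49.9% of all genes tested. The median absolute log2 difference was 0.09 over the members and 0.12 over all genes tested. An exact two-sided permutation test of a single gene in 3 against 3 libraries cannot give a p below 0.1. In these bulk libraries, fewer cells of a type and less RNA per cell cannot be told apart.

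**Figure D2:**
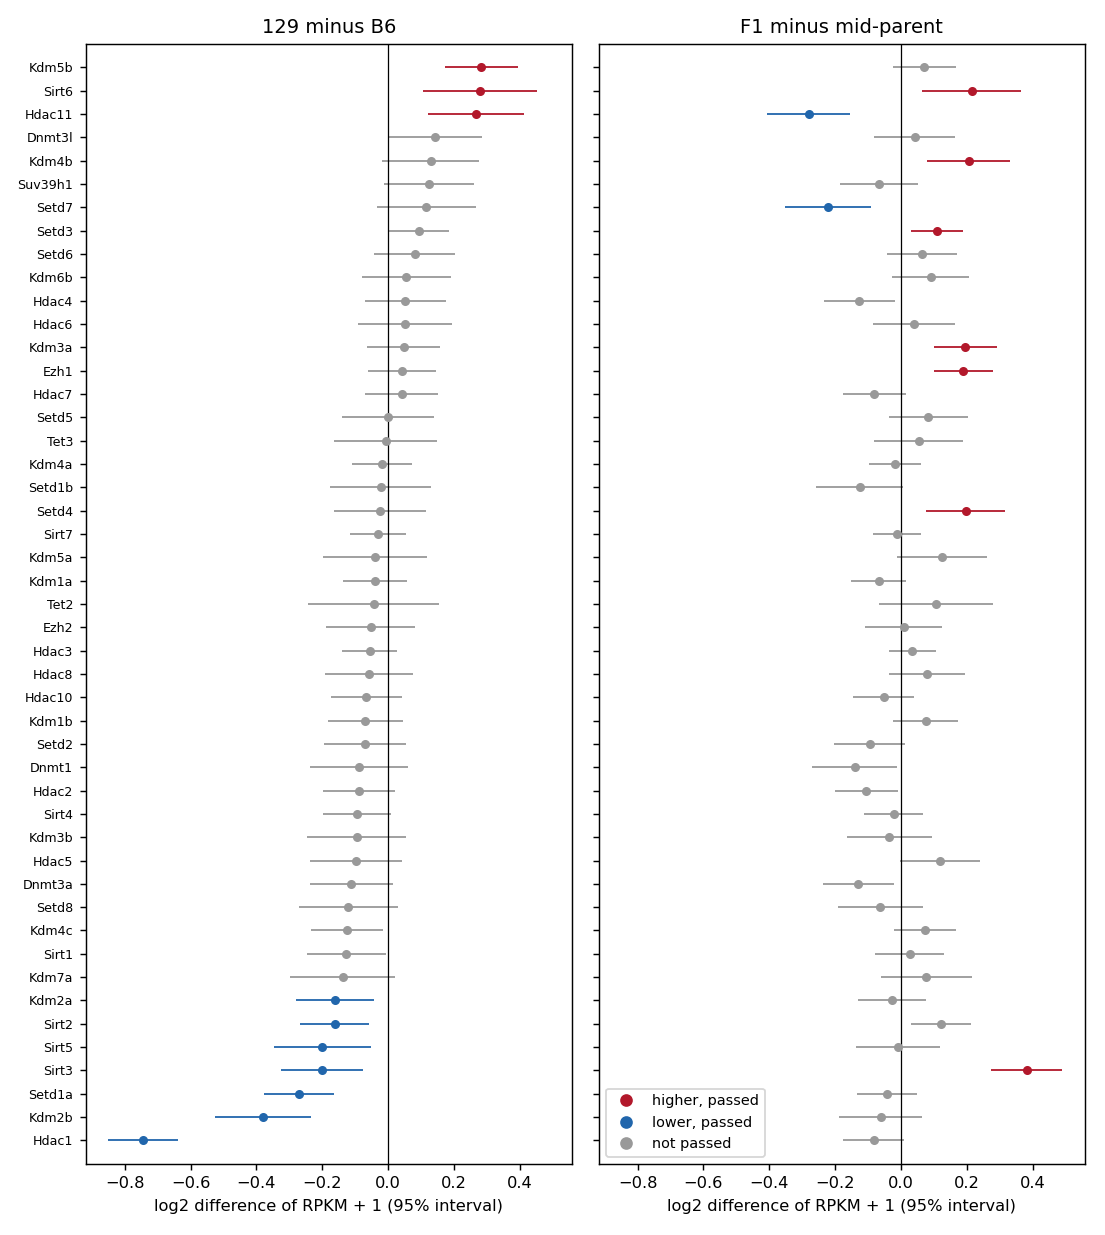
Log2 difference of RPKM + 1 with its 95% interval for the 47 tested members, 129 minus B6 on the left and F1 minus the mid-parent value on the right, in the same order of genes. Members past the threshold are red where higher and blue where lower. Hdac1 stands alone at the lower end on the left, and Sirt3 has the highest value on the right.

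The F1 was compared with each parent and with the mid-parent value, halfway between the parents on the log2 scale. In F1 minus B6, 8 members rose and 5 fell, which is 27.7% against a background of 31.2% of all genes. Of all genes, 11% rose and 20.2% fell. Groups did not overlap for 20 of 47 members and 44.2% of all genes. With median-of-ratios rescaling 8 members rose and 2 fell, and of all genes 1735 rose and 1753 fell, against 1270 and 2329 without it. In F1 minus 129, 6 members rose and 2 fell, which is 17% against 27.7% of all genes (12% higher and 15.7% lower), with 18 members and 44.5% of all genes not overlapping. Without 129 replicate 3 or without F1 replicate 3, 5 members passed, and with sample weights 13. Leaving out any 1 library gave 2238 to 3528 of all genes, against 3200 with all libraries. Against the mid-parent value 7 rose and 2 fell, which is 19.1% against 23.2% of all genes (8.35% higher and 14.8% lower). Of all genes 964 rose and 1712 fell, and 1298 and 1348 after rescaling. Without B6 replicate 1, F1 replicate 2 or F1 replicate 3, 5 members passed, and with sample weights 14. Leaving out any 1 library gave 1799 to 3048 of all genes, against 2676 with all libraries. The counts of all genes with sample weights are not given here. These comparisons share libraries, so their counts are not independent of each other.

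The stretches before the starts of 4 called members are shown, 1 for each pattern met below: Kdm2b (lower in 129 and F1 than in B6), Kdm5b (higher in both), Ezh1 (F1 above both parents) and Hdac11 (F1 lower than 129). Sequences are from RefSeq, build GRCm38.p6, written 5′ to 3′ on the gene's strand and limited to bases outside annotated exons: chr5:122900356-122900600 on the minus strand for Kdm2b, chr1:134559928-134560170 on the plus strand for Kdm5b, chr11:101226464-101226713 on the minus strand for Ezh1 and chr6:91156565-91156664 on the plus strand for Hdac11. Capitals mark matches, on either strand, to the motifs searched.
Kdm2b: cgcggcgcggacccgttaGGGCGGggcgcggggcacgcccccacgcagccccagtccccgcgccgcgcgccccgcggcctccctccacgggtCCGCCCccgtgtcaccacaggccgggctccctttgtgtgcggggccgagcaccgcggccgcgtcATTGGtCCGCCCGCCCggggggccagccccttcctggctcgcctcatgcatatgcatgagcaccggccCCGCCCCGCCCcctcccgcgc
Kdm5b: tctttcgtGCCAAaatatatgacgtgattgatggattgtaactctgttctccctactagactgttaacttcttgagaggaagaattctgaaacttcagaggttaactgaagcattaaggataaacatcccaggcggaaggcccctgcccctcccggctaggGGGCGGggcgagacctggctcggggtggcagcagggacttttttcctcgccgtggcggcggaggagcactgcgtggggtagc
Ezh1: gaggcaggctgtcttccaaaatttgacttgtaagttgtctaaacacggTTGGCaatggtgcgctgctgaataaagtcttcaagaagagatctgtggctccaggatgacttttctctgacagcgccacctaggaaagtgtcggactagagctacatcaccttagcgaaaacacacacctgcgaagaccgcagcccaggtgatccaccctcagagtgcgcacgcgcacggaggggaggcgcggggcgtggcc
Hdac11: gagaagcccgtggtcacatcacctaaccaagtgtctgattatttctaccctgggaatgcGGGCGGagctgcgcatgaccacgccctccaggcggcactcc

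The Kdm2b stretch held 6 GC boxes (GGGCGG) and 1 CCAAT box, and the Kdm5b stretch held 1 GC box and 1 short NFI motif (TTGGC). Kdm2b has other RefSeq windows that are not shown. An overlapping one held 5 GC boxes and 1 CCAAT box. The window at chr5:122988508-122988757 held 0 of both, and that at chr5:122989100-122989349 held 1 GC box, 0 CCAAT boxes and 1 short NFI motif. Ezh1 had 1 short NFI motif and no GC box in these letters, and the Hdac11 stretch of 100 bases had 1 GC box. The full Hdac11 window of 250 bases, exon bases included, had 1 GC box, 1 CCAAT box and 1 short NFI motif. RefSeq windows of 250 bases before the start were found for 43 members, 65 windows in all. GC boxes stood in 60% of these member windows and 32.7% of all 32851 promoter windows, and the median number of CpG was 17 against 6. The windows differ in kind: an annotated transcript starts within 100 bases around the RefSeq start for 93.8% of the member windows and 58.4% of all windows. Part of those 100 bases lies after the start, outside the window of 250 bases. TTGGC stood in 50.8% against 41.5%, and CCAAT in 38.5% against 33.8%. Both short motifs share letters where GCCAAT occurs. The full palindromic NFI motif stood in 0% of the member windows and 0.0365% of all windows. TGACGTCA (CREB) stood in 1.54% against 1.55%, TTTCCCGC and TTTGGCGC (E2F) in 1.54% and 0% against 0.895% and 0.417%, and the palindromic NRF1 motif in 1.54% against 0.782%. A match is a description of the letters, not a binding site, and member windows of 1 gene can overlap.

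Among the class I deacetylases, Hdac1 differed between every pair of groups. Hdac1 (mm9 chr4:129193348-129219890), the catalytic subunit of the Sin3, NuRD and CoREST complexes, was at 55.4, 53.7 and 55.4 RPKM in B6, 34.0, 31.2 and 31.8 in 129 and 42.2, 38.9 and 38.3 in F1. All 129 libraries lay below all F1 libraries and all F1 libraries below all B6 libraries. It was 0.590 of the B6 level in 129, with a log2 difference of -0.74 (SE 0.05, adjusted p = 9.14e-07) and an exact permutation p of 0.1, the smallest possible. In F1 it was -0.45 (SE 0.05, adjusted p = 7.63e-05) from B6 and 0.29 (SE 0.05, adjusted p = 0.00149) from 129, which put it 61.0% of the way from B6 to 129 on the log2 scale. Its difference from the mid-parent value was -0.08 (SE 0.04, adjusted p = 0.186) and did not pass. It passed between all 3 pairs of groups under every alternative setting tried.

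Part of the Hdac1 reads is of uncertain origin. In the GRCm38 annotation, 58.7% of the 50-base windows of its transcript also occur in genes elsewhere, 56.4% in the processed pseudogene Gm10093, and how the authors counted reads with several matches is not given in the sources used here. The part of such reads in the strain difference was not tested. Within 500000 bases of Hdac1, 19 other genes were tested, of which 3 were higher and 3 lower in 129, from -0.19 to 0.89.

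Hdac2, the close paralogue of Hdac1 in the same complexes, was at 41.4, 41.1 and 44.0 RPKM in B6, 41.4, 37.2 and 40.2 in 129 and 38.9, 36.5 and 38.2 in F1. Its F1 libraries lay below all B6 libraries but overlapped 129. The fall from B6 to F1 was -0.15 (SE 0.05, adjusted p = 0.0416), and 129 minus B6 was -0.09 (SE 0.05, adjusted p = 0.183). The call for F1 minus B6 was lost without B6 replicate 1 (-0.16), without B6 replicate 3 (-0.12), without 129 replicate 3 (-0.15), without F1 replicate 2 (-0.12) or without F1 replicate 3 (-0.16), with rescaling (-0.11) and with no filter on low values (-0.15). Hdac3, the deacetylase of the NCoR and SMRT corepressors, was at 36.1, 35.3 and 35.1 RPKM in B6, 34.1, 33.9 and 34.3 in 129 and 36.3, 36.5 and 34.3 in F1. Its 129 minus B6 difference was -0.06 (SE 0.04, adjusted p = 0.275), with a 95% interval of -0.14 to 0.03, so a change of the size of Hdac1's lies outside it. Hdac8, the cohesin deacetylase on the X chromosome, had means of 4.69 ± 0.248 in B6, 4.47 ± 0.239 in 129 and 4.90 ± 0.371 in F1 and passed in no comparison.

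Summed over the 4 class I genes, RPKM was 137 ± 2.01 in B6, 110.5 ± 3.80 in 129 and 118 ± 3.56 in F1. Without Hdac1 the sums were 82.4 ± 1.19, 78.2 ± 2.54 and 78.5 ± 1.48, so most of the difference in the sum was that of Hdac1. Hdac1 made up 40.0% ± 0.303 of the class in B6, 29.3% ± 0.571 in 129 and 33.6% ± 0.781 in F1. Its ratio to Hdac2 was 1.30 ± 0.0388 in B6, 0.818 ± 0.0246 in 129 and 1.05 ± 0.0439 in F1. Hdac1 thus led Hdac2 in every B6 library, trailed it in every 129 library and was at or slightly above it in F1 (1.00, 1.07 and 1.08).

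**Figure D3:**
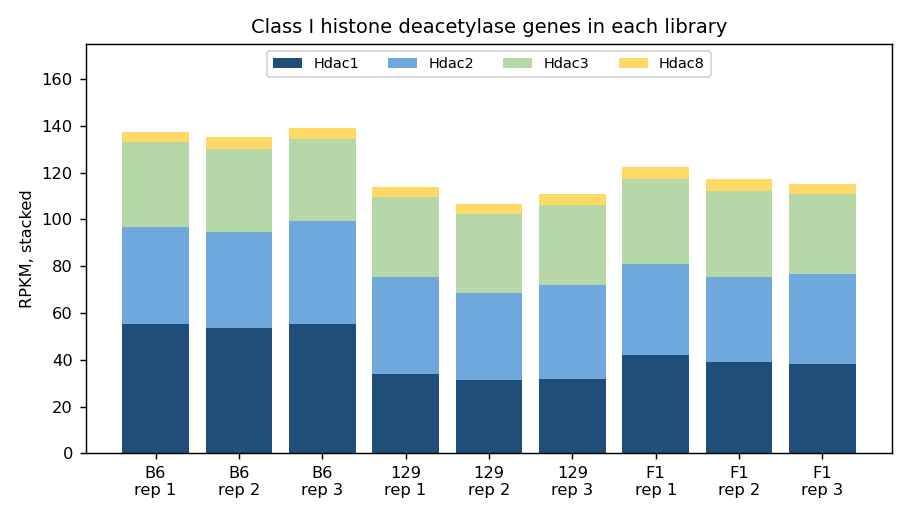
Stacked RPKM of Hdac1, Hdac2, Hdac3 and Hdac8 in each of the 9 libraries, 1 bar a library. The Hdac1 part runs from 53.7 to 55.4 RPKM in B6, from 31.2 to 34.0 in 129 and from 38.3 to 42.2 in F1, and the rest of each bar varies less.

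With all libraries and the settings of the report, limma called none of the class II deacetylases in any comparison. Of all genes tested, 37.5% passed in 129 minus B6, 31.2% in F1 minus B6, 27.7% in F1 minus 129 and 23.2% in F1 minus mid-parent. With 5 tested, a count of 0 says little about the class. The shares of all genes at an unadjusted p under 0.05 or with voom are not given here. At an unadjusted p under 0.05, 0 of the 5 tested stood out in 129 minus B6 and in F1 minus B6, 2 (Hdac4 and Hdac5) in F1 minus 129 and 1 (Hdac4) in F1 minus mid-parent, and voom on recovered reads called Hdac4 in the last 2. Class IIa enzymes have weak activity of their own and carry repressors between cytosol and nucleus. Hdac4 was at 2.84, 2.87 and 2.86 RPKM in B6, 2.73, 3.15 and 3.13 in 129 and 2.58, 2.51 and 2.70 in F1, and all F1 libraries lay below all 129 libraries (F1 minus 129 -0.15, SE 0.06, adjusted p = 0.0679, not passed). That difference did pass with sample weights (-0.17), with voom on the recovered reads (-0.21) and without 129 replicate 1 (-0.20). Hdac5 was at 14.6, 15.9 and 13.2 RPKM in B6, 13.0, 14.1 and 13.4 in 129 and 15.6, 15.7 and 14.6 in F1, and all F1 libraries lay above all 129 libraries (F1 minus 129 0.17, SE 0.06, adjusted p = 0.0755, not passed). That difference passed with a replicate block (adjusted p = 0.0388), with only the 2 groups in the fit, with sample weights and without B6 replicate 2 or B6 replicate 3. Its F1 minus mid-parent difference passed without B6 replicate 2 (0.15). Hdac7 lay between 14.6 and 16.8 RPKM, and its F1 minus 129 difference (-0.10) passed only without F1 replicate 2 (-0.15). Hdac9, known as a brake on adipocyte differentiation, was at 0.255, 0.298 and 0.205 RPKM in B6, 0.325, 0.291 and 0.210 in 129 and 0.297, 0.217 and 0.277 in F1, too low to test. The class IIb genes Hdac6, a tubulin deacetylase, and Hdac10, a polyamine deacetylase, had sums of 9.42 ± 0.491 RPKM in B6, 9.32 ± 0.241 in 129 and 9.31 ± 0.290 in F1.

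Hdac11 (mm9 chr6:91106809-91124677), which removes long fatty acyl groups from lysines and is known to restrain brown fat thermogenesis, was the lowest of the tested deacetylases and had the widest range of the tested members, with 1.90 times as much in its highest library as in its lowest. Its levels were 1.58, 1.66 and 1.49 RPKM in B6, 2.12, 2.22 and 1.94 in 129 and 1.37, 1.43 and 1.17 in F1. The 3 groups did not overlap, with 129 highest and F1 lowest. It was 1.33-fold higher in 129 than in B6 (0.27, SE 0.07, adjusted p = 0.00898). F1 minus 129 was -0.41 (SE 0.07, adjusted p = 0.00116), F1 minus mid-parent -0.28 (SE 0.06, adjusted p = 0.00598) and F1 minus B6 -0.15 (SE 0.07, adjusted p = 0.116), of which the last did not pass. Because its RPKM is near the added 1, the log2 values understate the change: with a pseudocount of 0.1, F1 minus 129 was -0.63 and F1 minus mid-parent -0.43, and with voom on recovered reads 129 minus B6 was 0.42.

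Of the 7 sirtuins, 3 fell and 1 rose in 129 relative to B6, and in F1 the mitochondrial Sirt3 stood above both parents. Over all genes tested, 21.7% fell and 15.9% rose in 129 minus B6. Sirt3 (mm9 chr7:148049562-148068208), the main deacetylase of mitochondrial enzymes, was at 21.0, 19.1 and 19.0 RPKM in B6, 15.7, 17.9 and 17.4 in 129 and 24.0, 25.0 and 23.5 in F1. The groups did not overlap, with 129 lowest, B6 between and F1 highest. It was 1.42-fold higher in F1 than in 129 (0.48, SE 0.06, adjusted p = 0.000157) and 1.23-fold higher than in B6 (0.28, SE 0.06, adjusted p = 0.00363).

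The excess of Sirt3 over the mid-parent value was 0.38 (SE 0.05, adjusted p = 0.000459), the largest of the module. The smaller difference between parents was -0.20 (SE 0.06, adjusted p = 0.0163) and was lost without B6 replicate 1 (-0.16) or without 129 replicate 1 (-0.15). Sirt3 starts 85 bases from Psmd13, a proteasome subunit gene read from the other strand, which had 62.2 ± 4.54 RPKM in B6, 60.2 ± 1.69 in 129 and 57.1 ± 2.47 in F1 and passed in none of 129 minus B6, F1 minus B6 and F1 minus mid-parent. Exons of Ric8 on the opposite strand cover 4.38% of the Sirt3 exon length, and the strand setting of the counting is not given in the sources used here.

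Sirt6 (mm9 chr10:81084531-81090353), a nuclear deacetylase of H3K9 and H3K56, was at 7.07, 8.28 and 6.32 RPKM in B6, 9.28, 9.28 and 8.28 in 129 and 9.52, 9.57 and 9.31 in F1. B6 lay below both other groups, though its replicate 2 nearly equalled 129 replicate 3. It was 1.24-fold higher in 129 (0.28, SE 0.08, adjusted p = 0.0164) and 1.31-fold higher in F1 (0.36, SE 0.08, adjusted p = 0.00627) than in B6. The 129 call was lost without B6 replicate 3 (0.20), without 129 replicate 1 (0.26) or without 129 replicate 2 (0.26). F1 minus mid-parent was 0.22 (SE 0.07, adjusted p = 0.0431) and passed in 7 of 16 alternative settings, and it was lost without B6 replicate 1 (0.21), without B6 replicate 3 (0.17), without 129 replicate 1 (0.23), without 129 replicate 2 (0.23), without 129 replicate 3 (0.19), without F1 replicate 1 (0.21), without F1 replicate 2 (0.21) or without F1 replicate 3 (0.23). This call was also lost with no filter on low values.

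Sirt2, a mostly cytosolic tubulin deacetylase that also acts on adipogenic FOXO1, was at 24.8, 26.9 and 26.9 RPKM in B6, 22.3, 24.3 and 23.4 in 129 and 27.8, 26.2 and 27.0 in F1. All 129 libraries lay below all others. 129 minus B6 was -0.16 (SE 0.05, adjusted p = 0.0207) and F1 minus 129 0.20 (SE 0.05, adjusted p = 0.0095). The first of these was lost with rescaling (-0.13) and without B6 replicate 2 (-0.14), without B6 replicate 3 (-0.14), without 129 replicate 1 (-0.13) or without 129 replicate 3 (-0.17). Exons of Gm19897 on the opposite strand cover 8% of its exon length.

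Sirt5, the mitochondrial desuccinylase, was at 12.0, 10.9 and 11.8 RPKM in B6, 9.53, 10.3 and 10.1 in 129 and 9.93, 12.0 and 10.2 in F1. Its 129 libraries lay below all B6 libraries, while F1 overlapped both. 129 minus B6 was -0.20 (SE 0.07, adjusted p = 0.0371), the least stable of the calls between parents: it passed in 8 of 17 alternative settings and was lost without B6 replicate 1 (-0.17), without B6 replicate 3 (-0.19), without 129 replicate 1 (-0.17), without 129 replicate 2 (-0.22) or without 129 replicate 3 (-0.21). The call was also lost with no filter on low values, with rescaling and with voom on the recovered reads. Fitted with a replicate block the difference was -0.20 with an adjusted p of 0.0524.

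Sirt1, the nuclear sirtuin best known in fat for acting on PPARγ and PGC-1α, was at 3.82, 3.98 and 4.01 RPKM in B6, 3.35, 3.57 and 3.63 in 129 and 3.75, 3.59 and 4.10 in F1. Its 129 libraries lay below all B6 libraries, but the difference did not pass (-0.13, SE 0.05, adjusted p = 0.0895). The mitochondrial Sirt4 and the nucleolar Sirt7 passed in no comparison, with 129 minus B6 at -0.09 and -0.03. Sums over the 7 sirtuins were 93.4 ± 0.537 RPKM in B6, 86.5 ± 3.31 in 129 and 99.1 ± 1.27 in F1, with no overlap between groups. Sirt2 and Sirt3 held the highest levels of the class in every library.

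**Figure D4:**
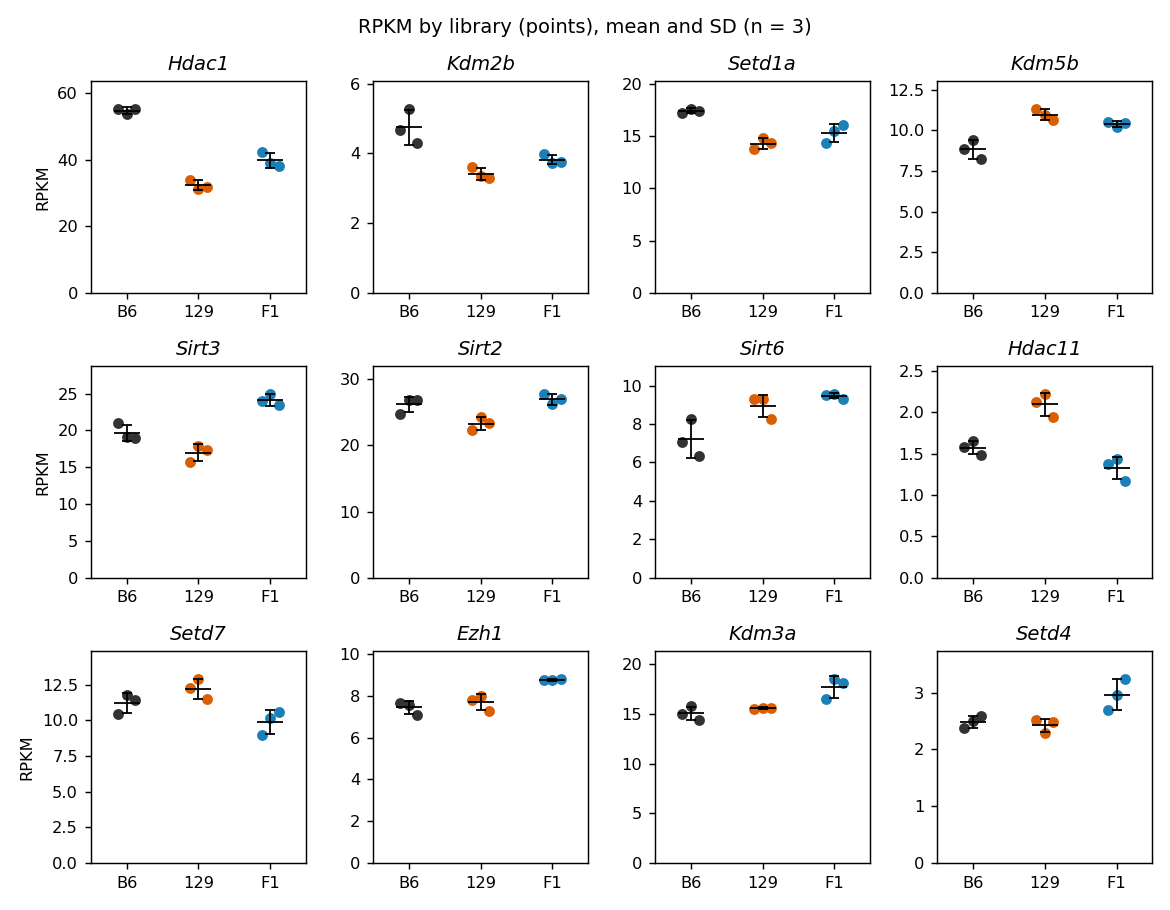
RPKM of 12 of the members in each library (points), with the group mean and SD (n = 3), axes starting at 0. In the top row B6 stands apart from 129 for Hdac1, Kdm2b, Setd1a and Kdm5b, and in Sirt3, Ezh1, Kdm3a and Setd4 the F1 points lie above those of both parents.

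Among the lysine demethylases, Kdm2b and Kdm2a were lower and Kdm5b was higher in 129. The KDM4 genes, which also act on H3K36, did not pass (Kdm4a -0.02, Kdm4b 0.13 and Kdm4c -0.12 in 129 minus B6). Kdm2b (mm9 chr5:123320685-123439101), which demethylates H3K36 and brings a variant Polycomb complex to CpG islands, was at 4.68, 5.28 and 4.29 RPKM in B6, 3.61, 3.34 and 3.28 in 129 and 3.97, 3.74 and 3.75 in F1. All B6 libraries lay above all 129 and F1 libraries, and F1 lay above 129. It was 0.718 of the B6 level in 129 (-0.38, SE 0.07, adjusted p = 0.00103) and 0.804 in F1 (-0.25, SE 0.07, adjusted p = 0.015), which is 66.1% of the way to 129. The F1 call was lost without F1 replicate 2 (-0.24), with an adjusted p of 0.0504. In its transcript, 11% of the 50-base windows also occur in genes elsewhere, so part of its reads is uncertain.

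Kdm2a, its paralogue, was at 20.4, 21.3 and 19.7 RPKM in B6, 17.4, 19.1 and 18.3 in 129 and 17.7, 19.2 and 20.0 in F1. The 129 libraries lay below all B6 libraries, with 129 minus B6 at -0.16 (SE 0.05, adjusted p = 0.0378). This call passed in 10 of 17 alternative settings and was lost without B6 replicate 1 (-0.16), without B6 replicate 2 (-0.13), without 129 replicate 1 (-0.13), without 129 replicate 3 (-0.16) or without F1 replicate 2 (-0.16), as well as with rescaling (-0.13). With no filter on low values the call was lost too. F1 overlapped both parents.

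Kdm5b (mm9 chr1:136456755-136529455), which removes H3K4 methylation at promoters, was at 8.85, 9.44 and 8.26 RPKM in B6, 11.3, 11.0 and 10.6 in 129 and 10.5, 10.2 and 10.5 in F1. All B6 libraries lay below all others, and F1 lay just below 129 without overlap. It was 1.24-fold higher in 129 (0.28, SE 0.05, adjusted p = 0.00117) and 1.18-fold higher in F1 (0.21, SE 0.05, adjusted p = 0.00887) than in B6, and passed both comparisons under every setting tried. Its relative Kdm5a was within 7.13 to 9.31 RPKM in all libraries and passed in none of the comparisons.

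Kdm3a (mm9 chr6:71538964-71582911), an H3K9 demethylase whose loss is known to make mice obese, was at 15.0, 15.8 and 14.4 RPKM in B6, 15.5, 15.6 and 15.6 in 129 and 16.5, 18.5 and 18.1 in F1. All F1 libraries lay above all parental libraries, and the parents overlapped. It was 1.18-fold higher in F1 than in B6 (0.22, SE 0.05, adjusted p = 0.0079) and 1.14-fold higher than in 129 (0.17, SE 0.05, adjusted p = 0.0276), with 0.20 (SE 0.04, adjusted p = 0.00917) against the mid-parent value. The comparison with 129 was lost without 129 replicate 1 (0.17), without 129 replicate 2 (0.17), without 129 replicate 3 (0.18), without F1 replicate 2 (0.14) or without F1 replicate 3 (0.16).

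Kdm4b, an H3K9 demethylase induced by oxygen shortage in many cells, was at 12.9, 14.4 and 12.4 RPKM in B6, 13.3, 15.9 and 14.6 in 129 and 16.2, 16.3 and 16.0 in F1. All F1 libraries lay above all B6 and all 129 libraries, though only narrowly above 129 replicate 2. F1 minus B6 was 0.27 (SE 0.07, adjusted p = 0.0109) and F1 minus mid-parent 0.21 (SE 0.06, adjusted p = 0.0264). The second was lost with no filter on low values (0.21) and without B6 replicate 1 (0.20), without F1 replicate 1 (0.21), without F1 replicate 2 (0.20) or without F1 replicate 3 (0.21).

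Kdm1a, the flavin demethylase LSD1 of the CoREST complex, was at 15.4, 15.7 and 14.6 RPKM in B6, 15.3, 14.3 and 14.7 in 129 and 14.2, 14.7 and 13.9 in F1, with 129 minus B6 of -0.04 (SE 0.04, adjusted p = 0.503). Kdm6b, which removes H3K27 methylation, was at 11.5, 12.4 and 11.3 RPKM in B6, 11.6, 13.2 and 11.9 in 129 and 11.9, 13.1 and 13.4 in F1, with 129 minus B6 of 0.06 (SE 0.06, adjusted p = 0.51). Groups overlapped for both genes and neither passed in any comparison. The 95% intervals of 129 minus B6 were -0.14 to 0.06 for Kdm1a and -0.08 to 0.19 for Kdm6b. Kdm1b, the second flavin enzyme, did not pass either (-0.07 in 129 minus B6), while Tpmt, read from the other strand 282 bases away, was higher in 129 (6.06 ± 0.295 to 11.2 ± 0.580 RPKM, 0.79, adjusted p = 1.58e-06). Kdm4d was measured with as few as 2 reads in a library.

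Of the 12 SET domain methyltransferases tested, 1 fell in 129 and 0 rose (limma), against 21.7% and 15.9% of all genes tested. At an unadjusted p under 0.05 1 was higher, Setd3, and voom called 0 higher. Setd1a (mm9 chr7:134920903-134943633), the catalytic subunit of an H3K4 methyltransferase complex, was at 17.2, 17.6 and 17.5 RPKM in B6, 13.7, 14.8 and 14.3 in 129 and 14.4, 15.5 and 16.1 in F1. All B6 libraries lay above all others, and F1 overlapped 129. It was 0.819 of the B6 level in 129 (-0.27, SE 0.05, adjusted p = 0.00116) and 0.879 in F1 (-0.18, SE 0.05, adjusted p = 0.0175). The F1 call was lost with rescaling (-0.13) and without F1 replicate 1 (-0.13). Its paralogue Setd1b passed in no comparison, and the ratio of Setd1a to Setd1b was 4.36 ± 0.0984 in B6, 3.65 ± 0.281 in 129 and 4.31 ± 0.0937 in F1.

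Ezh1 (mm9 chr11:101052429-101087764), the Polycomb H3K27 methyltransferase of resting cells, was at 7.69, 7.57 and 7.10 RPKM in B6, 7.81, 8.01 and 7.28 in 129 and 8.75, 8.75 and 8.82 in F1. The F1 libraries were within 0.1 RPKM of each other and above all parental libraries. It was 0.21 (SE 0.05, adjusted p = 0.00669) from B6, 0.17 (SE 0.05, adjusted p = 0.0222) from 129 and 0.19 (SE 0.04, adjusted p = 0.00751) from the mid-parent value. The comparison with 129 was lost without 129 replicate 3 (0.13), without F1 replicate 2 (0.17) or without F1 replicate 3 (0.17). Ezh2, its counterpart in dividing cells, was at 4.52, 4.65 and 3.98 RPKM in B6, 4.33, 4.07 and 4.14 in 129 and 4.01, 4.44 and 4.49 in F1. Groups of Ezh2 overlapped and it passed in no comparison (F1 minus mid-parent 0.01, SE 0.05, adjusted p = 0.928).

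Setd7, which monomethylates H3K4 and several transcription factors, was at 10.4, 11.8 and 11.4 RPKM in B6, 12.3, 12.9 and 11.5 in 129 and 8.96, 10.2 and 10.6 in F1. All F1 libraries lay below all 129 libraries and overlapped B6 at its lowest library. F1 minus 129 was -0.28 (SE 0.07, adjusted p = 0.0116) and F1 minus mid-parent -0.22 (SE 0.06, adjusted p = 0.0213). The second was lost without F1 replicate 1 (-0.16).

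Setd4, a little-studied SET domain gene, was at 2.37, 2.49 and 2.58 RPKM in B6, 2.51, 2.29 and 2.47 in 129 and 2.69, 2.95 and 3.24 in F1. All F1 libraries lay above all parental ones. F1 minus B6 was 0.18 (SE 0.06, adjusted p = 0.0461), F1 minus 129 0.21 (SE 0.06, adjusted p = 0.0309) and F1 minus mid-parent 0.20 (SE 0.05, adjusted p = 0.0252). The first passed in 5 of 16 alternative settings and was lost without B6 replicate 1 (0.16), without B6 replicate 2 (0.19), without B6 replicate 3 (0.21), without 129 replicate 1 (0.18), without 129 replicate 2 (0.18), without 129 replicate 3 (0.18), without F1 replicate 2 (0.18) or without F1 replicate 3 (0.13). The second was lost without 129 replicate 1 (0.23), without 129 replicate 2 (0.18), without 129 replicate 3 (0.22), without F1 replicate 2 (0.21) or without F1 replicate 3 (0.16), and the third without B6 replicate 1 (0.18), without 129 replicate 2 (0.18), without F1 replicate 2 (0.20) or without F1 replicate 3 (0.15). Each was also lost with no filter on low values. The first was lost too with only the groups compared in the fit and with voom on the recovered reads.

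Setd8, which writes H4K20 monomethylation, was at 43.4, 46.6 and 42.8 RPKM in B6, 42.8, 38.9 and 40.1 in 129 and 42.9, 36.2 and 42.8 in F1. Groups overlapped and it passed in no comparison (129 minus B6 -0.12, SE 0.07, adjusted p = 0.188). Setd3 was at 36.1 to 37.9 RPKM in B6 and 40.6 to 42.2 in F1, with F1 minus B6 of 0.16 (SE 0.04, adjusted p = 0.0151), lost without B6 replicate 1 (0.15). Its F1 minus mid-parent difference was 0.11 (SE 0.04, adjusted p = 0.0472) and was lost with a replicate block (adjusted p = 0.0545) and without B6 replicate 1 (0.11), without B6 replicate 2 (0.10), without 129 replicate 1 (0.12), without 129 replicate 2 (0.10), without 129 replicate 3 (0.12), without F1 replicate 1 (0.10), without F1 replicate 2 (0.11) or without F1 replicate 3 (0.12). For Setd3, 37.6% of the 50-base windows of the transcript also occur in genes elsewhere, 29.6% in the processed pseudogene Gm14026. Suv39h1, the X-linked H3K9 trimethylase of heterochromatin, was at 2.68, 2.76 and 2.31 RPKM in B6, 3.07, 2.85 and 2.79 in 129 and 2.63, 2.62 and 2.46 in F1 and passed in no comparison. The remaining tested members Setd2, Setd5 and Setd6 passed in none either.

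Of the 5 tested enzymes of DNA methylation and its oxidation, 0 passed between the parents with limma, 0 with voom and 1, Dnmt3l, at an unadjusted p under 0.05. Of all genes tested, 37.5% passed between the parents with limma. Dnmt1, the maintenance enzyme that follows DNA replication, was at 4.59, 4.54 and 4.27 RPKM in B6, 4.72, 4.02 and 3.73 in 129 and 3.73, 3.81 and 3.90 in F1. All F1 libraries lay below all B6 libraries, but F1 minus B6 did not pass (-0.18, SE 0.07, adjusted p = 0.0606). It passed in 5 of 16 alternative settings, among them with sample weights (adjusted p = 0.0256) and without 129 replicate 1 (-0.18). Without that library, 129 minus B6 also passed (-0.17, adjusted p = 0.0472), against -0.09 (SE 0.07, adjusted p = 0.333) with it.

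Dnmt3a, which sets new methylation, was at 7.80, 7.91 and 7.72 RPKM in B6, 6.99, 7.33 and 7.15 in 129 and 6.07, 7.10 and 7.12 in F1. All F1 libraries lay below all B6 libraries, and B6 was also above all 129 libraries. F1 minus B6 was -0.19 (SE 0.06, adjusted p = 0.0296), and 129 minus B6 was -0.11 (SE 0.06, adjusted p = 0.148). The F1 call was lost with rescaling (-0.15), with only the groups compared in the fit (-0.19) and without B6 replicate 1 (-0.19), without B6 replicate 2 (-0.18), without B6 replicate 3 (-0.19) or without F1 replicate 1 (-0.12). With no filter on low values it was lost too. Dnmt3b was at 0.405, 0.362 and 0.232 RPKM in B6, 0.427, 0.430 and 0.468 in 129 and 0.425, 0.342 and 0.350 in F1, too low to test, and 11.5% of its transcript windows also occur elsewhere. Dnmt3l, the inactive cofactor of these enzymes, was at 1.17 to 1.54 RPKM and passed in no comparison.

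Of the TET enzymes, which oxidise methylcytosine, Tet2 and Tet3 were expressed and Tet1 was not testable. Tet2 was at 5.45, 6.33 and 5.06 RPKM in B6, 5.33, 5.70 and 5.16 in 129 and 5.14, 6.24 and 6.68 in F1. Tet3 was at 6.14, 6.49 and 5.68 RPKM in B6, 5.78, 6.55 and 5.87 in 129 and 5.75, 6.44 and 6.90 in F1. Groups overlapped for both, with 129 minus B6 at -0.04 (SE 0.09, adjusted p = 0.739) and -0.01 (SE 0.07, adjusted p = 0.948). Tet1 was at 0.230, 0.353 and 0.192 RPKM in B6, 0.161, 0.202 and 0.132 in 129 and 0.138, 0.221 and 0.218 in F1. The 95% intervals of 129 minus B6 were -0.24 to 0.16 for Tet2 and -0.16 to 0.15 for Tet3. The Sirt2 difference (-0.16) lay inside the first and at the edge of the second. A difference of that size is thus not excluded for either gene.

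Taking the F1 across the members, 4 were past the threshold above both parents: Sirt3, Ezh1, Kdm3a and Setd4. That is 8.51% of the members, and 2.82% of all genes tested showed the same pattern. Below both parents 0 members were past it against 4.95% of all genes, with 2 (Setd7 and Hdac11) at an unadjusted p under 0.05 and 0 by voom, while voom put 3 above both (without Setd4). Hdac1 was past it from both parents and lay between them. Of the 10 members that differed between the parents, F1 lay between the parental means for 6 (Hdac1, Kdm2b, Setd1a, Kdm2a, Sirt5 and Kdm5b), which is 60% against 67.7% of the 4333 such genes in all. The 8 adipocyte markers also summed higher in every F1 library than in any parental one. Gene by gene, 2 of them were higher, 1 was lower and 5 did not pass in F1 minus mid-parent, with a median of -0.004. The part of adipocyte content in the members above both parents was not tested. Of the other 4 of those 10 members, the F1 mean was above both for Sirt2, Sirt3 and Sirt6 and below both for Hdac11. Only Sirt3 was past the threshold from both parents. With limma, F1 minus B6 did not pass for Sirt2 (0.04, adjusted p = 0.537) and Hdac11 (-0.15, adjusted p = 0.116). Nor did F1 minus 129 for Sirt6 (0.08, adjusted p = 0.525). Of the 6 between the parents, Hdac1 was 61.0% of the way from B6 to 129, Kdm2b 66.1%, Setd1a 65.2%, Kdm2a 66.4%, Sirt5 53.9% and Kdm5b 75.0%, as point values on the log2 scale.

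Genes that work with the module were read from lists of partners. Of all genes tested, 15.9% rose and 21.7% fell in 129 minus B6, the shares beside which the counts of these lists stand. Of 27 subunits of the deacetylase corepressor complexes, 7 rose and 1 fell in 129 minus B6. Among them Sap30 of the Sin3 complex rose from 3.54 ± 0.240 to 5.34 ± 0.255 RPKM (0.48, adjusted p = 9.23e-05), Sap130 of the same complex from 10.4 ± 0.270 to 12.6 ± 0.443 RPKM (0.26, adjusted p = 0.000703), and Chd4, the NuRD remodeller, fell from 52.2 ± 1.52 to 45.3 ± 1.06 RPKM (-0.20, adjusted p = 0.00387). Summed RPKM of the list overlapped between groups (475.2 to 492.2 for B6, 484.9 to 493.5 for 129 and 485.5 to 486.9 for F1). Median differences were 0.02 for this list and -0.03 for all genes tested. Of 17 acetyltransferases and bromodomain readers, which write or read the marks that deacetylases remove, 1 fell, the coactivator Ncoa2 (-0.23, adjusted p = 0.0339), and the others did not pass. The list median was -0.05.

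Of 16 genes of NAD metabolism, which supplies the sirtuins, 6 rose and 5 fell in 129. Nnt, the mitochondrial transhydrogenase, rose from 1.92 ± 0.173 to 3.34 ± 0.141 RPKM (0.57, adjusted p = 4.48e-05). Nnmt, which consumes nicotinamide and S-adenosylmethionine, fell from 104 ± 11.5 to 65.4 ± 3.43 RPKM (-0.65, adjusted p = 8.68e-05), and so did the NAD consumer Parp1, from 25.2 ± 0.781 to 20.0 ± 0.408 RPKM (-0.32, adjusted p = 0.000128). The list median was -0.04. In B6 and F1, Nnt was at a like level (1.92 ± 0.173 and 1.85 ± 0.136 RPKM).

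Of 22 other Polycomb genes, from several complexes, 3 rose and 1 fell in 129. The chromodomain proteins Cbx6 (0.30, adjusted p = 0.000592) and Cbx2 (0.33, adjusted p = 0.00126) rose, and the deubiquitinase Bap1 fell (-0.20, adjusted p = 0.00621). Of 28 other lysine methyltransferase genes and cofactors, 2 rose and 3 fell, the latter being the H3K9 methyltransferase Ehmt1 (-0.37, adjusted p = 6.6e-05), the COMPASS subunit Ash2l (-0.18, adjusted p = 0.00913) and the H3K79 methyltransferase Dot1l (-0.23, adjusted p = 0.0104). Ehmt1 is known in brown fat as a partner of PRDM16, and it went from 9.97 ± 0.271 to 7.51 ± 0.220 RPKM. Of 11 other JmjC genes 2 fell, Hr (-0.61, adjusted p = 0.000199) and Kdm8 (-0.52, adjusted p = 0.000366). Of 18 readers and cofactors of DNA methylation 2 rose and 1 fell, with Gadd45b, a factor of active demethylation, at 0.42, adjusted p = 0.00588. Medians of these 4 lists were -0.01, -0.05, -0.07 and 0.05.

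Genes of cell division were lower in part outside B6, with more called lower in F1 than in 129. Of 24 tested proliferation genes, 1 rose and 6 fell in 129 minus B6, 13 fell in F1 minus B6, and 2 rose and 10 fell in F1 minus 129. Of all genes tested, 21.7%, 20.2% and 15.7% fell in these comparisons. The list medians were -0.02, -0.21 and -0.15, against -0.03, -0.04 and -0.01 over all genes tested. In 129 minus B6 the list median was thus near that of all genes. The summed RPKM of the list was 129.6 to 135.2 for B6, 107 to 118 for 129 and 107 to 113.5 for F1, so B6 lay above the other groups. Rrm2, the ribonucleotide reductase subunit of S phase, fell from 14.9 ± 0.810 to 7.72 ± 0.460 RPKM in 129 (-0.87, adjusted p = 6.7e-07), Rrm1 from 22.0 ± 0.732 to 14.2 ± 0.892 RPKM (-0.60, adjusted p = 4.63e-06) and Mcm6 from 3.20 ± 0.348 to 1.53 ± 0.302 RPKM (-0.73, adjusted p = 0.000114). Their part in the differences of Hdac1 and of the other members lower outside B6 was not tested.

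Of 8 adipocyte markers, 2 rose and 1 fell in 129 minus B6, 3 rose in F1 minus B6, and 2 rose and 2 fell in F1 minus 129. Markers of other cells moved as well. Of all genes tested, 15.9% rose and 21.7% fell in 129 minus B6, and 11% rose and 20.2% fell in F1 minus B6. Of 5 smooth muscle markers 3 fell in 129 and 5 in F1 relative to B6, with sums of 129 to 144 RPKM for B6, 128 to 137 for 129 and 99.9 to 106 for F1. The progenitor markers summed to 422 to 568 RPKM for B6, 441 to 461 for 129 and 308 to 388 for F1, and 2 of 5 rose and 1 fell in 129 while 3 fell in F1 relative to B6. Macrophage markers summed to 47.0 to 59.3 for B6, 22.6 to 49.6 for 129 and 40.4 to 60.2 for F1, and 3 of 9 fell in 129. Endothelial markers summed to 5.11 to 5.86, 2.64 to 3.28 and 3.88 to 4.01 RPKM, and both tested markers fell in 129 and in F1 relative to B6. Krt19, 1 of 4 epithelial markers, was higher in 129 and F1, while Epcam, Krt8 and Krt18 were at or near 0. The part of these cells in the differences of the members was not tested.

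At the lower end, Suv39h2 lay between 0.148 and 0.378 RPKM, with its 3 B6 libraries above the rest, and Kdm4d between 0.0264 and 0.0633. Neither was tested.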

How the data were processed

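The deposited values are RPKM per gene, 1 file a library. Per the submitters' processing notes, the authors' tools included STAR, and the build was mm9. What counted the reads, with which strand setting, annotation and versions, is not given in the sources used here. Multiplied by exon length, each file kept steps of 1 read, from which depth was recovered (tolerance 0.1 read, 100% of non-zero rows whole). Such an RPKM is relative to the other genes of its library.

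Genes that reached 1 RPKM in 3 or more of the 9 libraries were tested as log2(RPKM + 1) with limma 3.58.1 in R 4.3.3 (1 mean a group, trended prior variance, two-sided, Benjamini-Hochberg over 11542 genes, threshold 0.05). Errors are limma standard errors or SD over 3 libraries. The procedure was tested on simulated data.

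The members and all lists were chosen with earlier results of these data known. Every member could be named. Values in every library are given for up to 8 members with the largest rise and 8 with the largest fall past the threshold in 129 minus B6, up to 6 by size past it in F1 minus mid-parent, and a set of textbook members. Hdac5 was given library by library outside this rule. Genes of the lists are the 3 at most with the smallest p in 129 minus B6. Alternatives were pseudocount 0.1, no filter, a filter of 5 RPKM, rescaling, a replicate block, fits on the groups compared alone, sample weights and leaving out each library, with voom added after the data were seen. Promoters are RefSeq windows of GRCm38.p6, so their coordinates are not those of mm9.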

Additional observations from a re-analysis of the deposited data

How the results depend on the processing

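No member reversed its sign against a call under any setting run. The number of members called stayed within 1.5 times under most settings. Leaving out 1 library gave 6 to 12 members for 129 minus B6 (10 with all), 9 to 13 for F1 minus B6 (13), 5 to 9 for F1 minus 129 (8) and 5 to 10 for F1 minus mid-parent (9), and for all genes 3532 to 4487, 2597 to 3733, 2238 to 3528 and 1799 to 3048. With sample weights 13 members passed in F1 minus 129 and 14 in F1 minus mid-parent. The cause was not tested. Of the calls, 5 of 10, 7 of 13, 5 of 8 and 4 of 9 passed under every setting. Rescaling raised the differences of all genes, at the median, by 0.03, 0.04, 0.01 and 0.03. Deviations of same-numbered libraries correlated at -0.192 to 0.215, and those of differently numbered ones at -0.203 to 0.231. Between B6 and 129, the same-numbered pairs were at 0.0664, 0.125 and 0.215, and the others at -0.174 to 0.052. These few values cannot settle if the numbers pair the libraries. A replicate block gave 9, 13, 9 and 8 members. The planned edgeR and DESeq2 tests on recovered reads were not run, since the deposited unit is RPKM. In their place voom on recovered reads, chosen after the data were seen, gave 9, 13, 10 and 12. Depth was lower in the parents, and of the tested members Dnmt3l and Hdac11 had as few as 61 and 79 reads in a library.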
